A study of Homo sapiens with 6 samples.

Results

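The genes described here are 35 genes that the transcription factor p53 is known to activate, followed in HT-1080 cells after 48 h with a cytostatic drug. They were taken by gene symbol from the deposited tables, and all 35 were found among the 26286 genes listed there. HT-1080 is a human fibrosarcoma cell line, a connective-tissue tumour line grown in culture. Of its 3 groups, 1 received DMSO, the vehicle, 1 received 2 µM palbociclib, which inhibits the cyclin-dependent kinases CDK4 and CDK6, and 1 received 500 nM pimasertib, which inhibits the kinases MEK1 and MEK2. All groups share the cell line, the medium and the exposure time, the labels give no genetic change, and each was sequenced as 2 libraries. The libraries of a group carry numbers, but nothing in the labels ties a number to a culture of its own. The p-values below therefore reflect the spread of these libraries alone, and that spread may be technical.

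The protein p53 is kept scarce by MDM2, a ubiquitin ligase whose own gene p53 activates, so that the pathway limits itself. When DNA damage or other stress releases p53, it binds DNA as a tetramer and raises genes that halt the cell cycle, repair DNA, change metabolism or open the mitochondrial and death-receptor routes to apoptosis. Several of these genes also answer to other factors, such as the FOXO proteins and the immediate-early factors downstream of ERK.

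Library totals ran from 13607490 to 17500655 read counts. Levels are given as CPM, a depth-scaled read count in which TMM factors adjust each total, and a count of 3 corresponded to 0.168 to 0.220 CPM in a single library. All 35 genes passed the filter on low counts that left 14839 tested genes. Of 12 mesenchymal markers, VIM stood at 512 to 1191 CPM, while THY1 was at most 0.304 CPM, NT5E at most 1.40 and COL1A2 at most 1.74. Their sum ran from 3747 to 5679 CPM in DMSO, 5429 to 7723 in palbociclib and 10430 to 14270 in pimasertib. Of 9 tested there 5 rose (FN1, SPARC, COL1A1, COL6A2 and PDGFRB) and CD44 fell. The COL1A1 call was lost with no filter on low counts (adjusted p = 0.169) and with the replicate number as a block (0.0643). It was also lost when any library of DMSO or pimasertib was left out. The calls of FN1 and COL6A2 were lost with DESeq2 (0.08 and 0.123). Both were also lost without DMSO replicate 1 or either pimasertib library. VIM had both pimasertib libraries below both DMSO libraries, and by edgeR it was lower there than in palbociclib (−0.91, adjusted p = 0.0426). That VIM call was lost when any library of the 2 drugs was left out. Epithelial markers summed to 311 to 627 CPM, nearly all from KRT8, which rose in pimasertib (1.18, adjusted p = 0.0154), and KRT18, which fell there (−1.03, adjusted p = 0.00949). The KRT8 call was lost without pimasertib replicate 1 and the KRT18 call without pimasertib replicate 2. CDH1 and PTPRC, which define epithelial cells and leukocytes, were at 0 in 5 of 6 libraries each and at most 0.288 CPM in the remaining one. These markers moved with pimasertib, and their part in its results below was not tested. Palbociclib replicate 2 stood apart, with 69 genes at 1 CPM or more there and at most 0.2 CPM in all 5 other libraries, against 0 to 5 such genes in each other library. Among them was KRT14, a keratin of stratified epithelia, at 2.02 CPM there and 0 elsewhere. KRT19, a keratin of simple epithelia, was at 9.18 CPM there and at most 0.403 CPM elsewhere. The summed epithelial markers other than KRT8 and KRT18 came to 14.1 CPM in that library and 1.90 to 3.45 CPM in the others, and their part in the results below was not tested. Members called in palbociclib or between the drugs are therefore also given without it, while the DESeq2 calls were not rerun without it.

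At the promoter, p53 recognises pairs of a 10-base half-site. The half-site consensus was searched in RefSeq promoter windows of 300 bases on GRCh38.p14, from 250 bases before to 50 after each gene's start. The consensus reads the same on both strands, so a single search covers both. Of the 35 genes, 27 had a window, and 8 of these held an exact match, which is 29.6% of the matched genes against 8.06% of all 27305 genes in the RefSeq table. The stretches around the matches are shown because they let the results below be read beside the DNA. Each is written 5′ to 3′ on the gene's own strand, with the half-site in capitals.

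PLK2, chr5:58460199-58460228, minus strand, half-site 132 bases upstream of the start: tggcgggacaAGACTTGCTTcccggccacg

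AEN, chr15:88621296-88621325, plus strand, 34 bases upstream: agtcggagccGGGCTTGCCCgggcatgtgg

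FDXR, chr17:74872986-74873015, minus strand, 11 bases upstream: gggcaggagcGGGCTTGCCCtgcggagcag

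DDB2, chr11:47214975-47215003, plus strand, 2 half-sites beginning at position 6 of the transcript: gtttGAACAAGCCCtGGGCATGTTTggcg

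FAS, chr10:88991299-88991328, plus strand, 122 bases upstream: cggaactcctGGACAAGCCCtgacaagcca

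SESN1, chr6:109009018-109009047, minus strand, 49 bases upstream: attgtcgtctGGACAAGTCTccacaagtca

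EI24, chr11:125569457-125569486, plus strand, 10 bases upstream: cgtgcggcccGGGCATGCCCagtgcgggcg

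RPS27L, chr15:63157517-63157546, minus strand, 59 bases upstream: ggcctagagcAGACAAGCCCgccccgccgc

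DDB2 was the gene whose window held a pair of exact half-sites, with 1 base between them. Half-sites with a mismatch were not searched for, so pairs that include one were not counted. Of these 8 genes, PLK2 rose and AEN fell in pimasertib, and FDXR fell in palbociclib. The other 5 passed in none of the 3 comparisons by edgeR's test without a replicate term. A match is a description of the letters, and many p53 sites lie outside such windows, for example in first introns.

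The 2 genes with a half-site that moved furthest, PLK2 upward and AEN downward in pimasertib, are also shown with the 250 bases before their start, the half-site again in capitals.

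PLK2, chr5:58460087-58460336, minus strand: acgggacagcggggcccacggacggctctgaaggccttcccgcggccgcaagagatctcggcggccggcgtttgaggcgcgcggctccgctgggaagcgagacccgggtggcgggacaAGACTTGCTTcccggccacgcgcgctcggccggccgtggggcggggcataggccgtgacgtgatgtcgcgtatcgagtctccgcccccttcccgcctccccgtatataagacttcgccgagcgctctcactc

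AEN, chr15:88621090-88621339, plus strand: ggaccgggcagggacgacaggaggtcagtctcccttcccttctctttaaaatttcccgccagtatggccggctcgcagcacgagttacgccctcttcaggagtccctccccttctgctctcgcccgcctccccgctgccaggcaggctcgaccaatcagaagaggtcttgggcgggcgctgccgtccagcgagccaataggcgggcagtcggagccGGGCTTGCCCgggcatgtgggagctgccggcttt

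In untreated cells the 35 genes covered a wide range of levels. By the deposited FPKM, which divides by gene length, the highest means in DMSO were those of the death receptor gene TNFRSF10B at 158 ± 66.4 FPKM (SD, n = 2) and of GDF15, a secreted stress cytokine, at 154 ± 84.0. BAX, which encodes a pore-forming protein of the outer mitochondrial membrane, followed at 137 ± 10.4 FPKM. These levels lay within the spread of their neighbours in the order. At the low end stood SPATA18, a gene of mitochondrial quality control, at 2.31 ± 0.0783 FPKM, TP53INP1 at 3.37 ± 0.736 and APAF1 at 4.73 ± 0.373. MDM2 was in between at 37.7 ± 6.63 FPKM. Summed over all 35 genes, the libraries held 3681 and 4219 CPM in DMSO, 3428 and 3884 with palbociclib, and 3767 and 3703 with pimasertib. The sums of the 3 groups overlapped.

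Pimasertib split the set. BBC3, TP53I3, TP53INP1, PLK2, GADD45A and DRAM1 rose, while BAX, APAF1 and AEN fell, by edgeR's quasi-likelihood test at an adjusted p of 0.05 over all tested genes. These 6 genes are 17.1% of the 35, beside 11.1% of all tested genes that rose, and the 3 that fell are 8.57%, beside 11.7% of all tested genes, so neither share was far from the background. The median log2 fold change was −0.17 for the 35 genes and 0.00475 for all tested genes, and 12 of the 35 had a positive value (50.3% of all tested genes did). Both pimasertib libraries lay above both DMSO libraries in 8 of the genes and below them in 12, which is 22.9% and 34.3%, while the same held for 31.6% and 32.6% of all tested genes. In bulk RNA, fewer cells expressing a gene and less of its RNA per cell cannot be told apart.

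**Figure D1:**
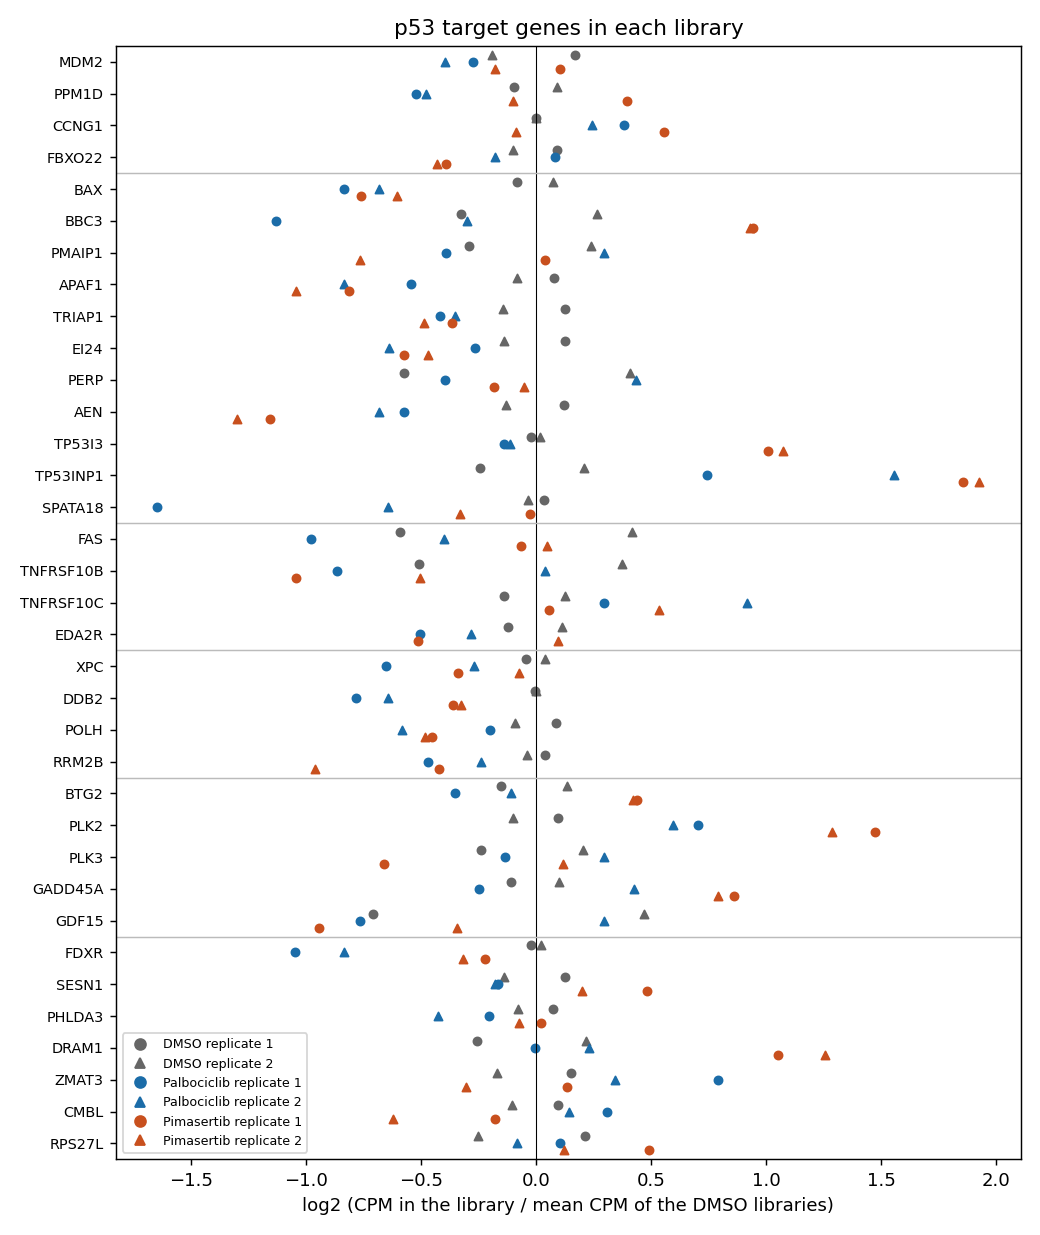
Level of each of the 35 genes in each library, as log2 of its CPM over the mean CPM of the DMSO libraries (horizontal axis), with grey, blue and orange points for DMSO, palbociclib and pimasertib, circles for replicate 1 and triangles for replicate 2. Genes are ordered by role from feedback genes at the top to metabolic and other genes at the bottom. TP53INP1, PLK2, DRAM1, TP53I3, BBC3 and GADD45A have both pimasertib points to the right of the DMSO points, and AEN, APAF1 and BAX have both to the left.

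By edgeR's test without a replicate term, palbociclib moved little of the set past the threshold. TP53INP1 rose and FDXR fell, and no other of the 35 genes passed that test. Each is 2.86% of the set, beside 1.11% of all tested genes that rose and 2.44% that fell. With the replicate number as a block, edgeR called 3 of the 35 genes higher and 10 lower. That fit called 8.65% of all tested genes higher and 11.3% lower. Below the threshold the values leaned downward, since 17 of the 35 genes (48.6%) had both palbociclib libraries below both DMSO libraries and 6 (17.1%) had both above, while 23.3% and 23.5% of all tested genes did so. With palbociclib replicate 2 left out, a count added after seeing the data, replicate 1 lay below both DMSO libraries in 24 of the 35 genes (68.6%) and above them in 6, beside 37% and 35% of all tested genes. The median log2 fold change was −0.31 for the 35 genes, beside 0.00488 over all tested genes, and 11 of the 35 had a positive value against 50.4% of all tested genes. Taken within replicate numbers, the median log2 ratio to DMSO was −0.29 in replicate 1 and −0.20 in replicate 2. The comparisons of each drug share the DMSO libraries, so their values stand side by side here and are not set against each other.

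**Figure D2:**
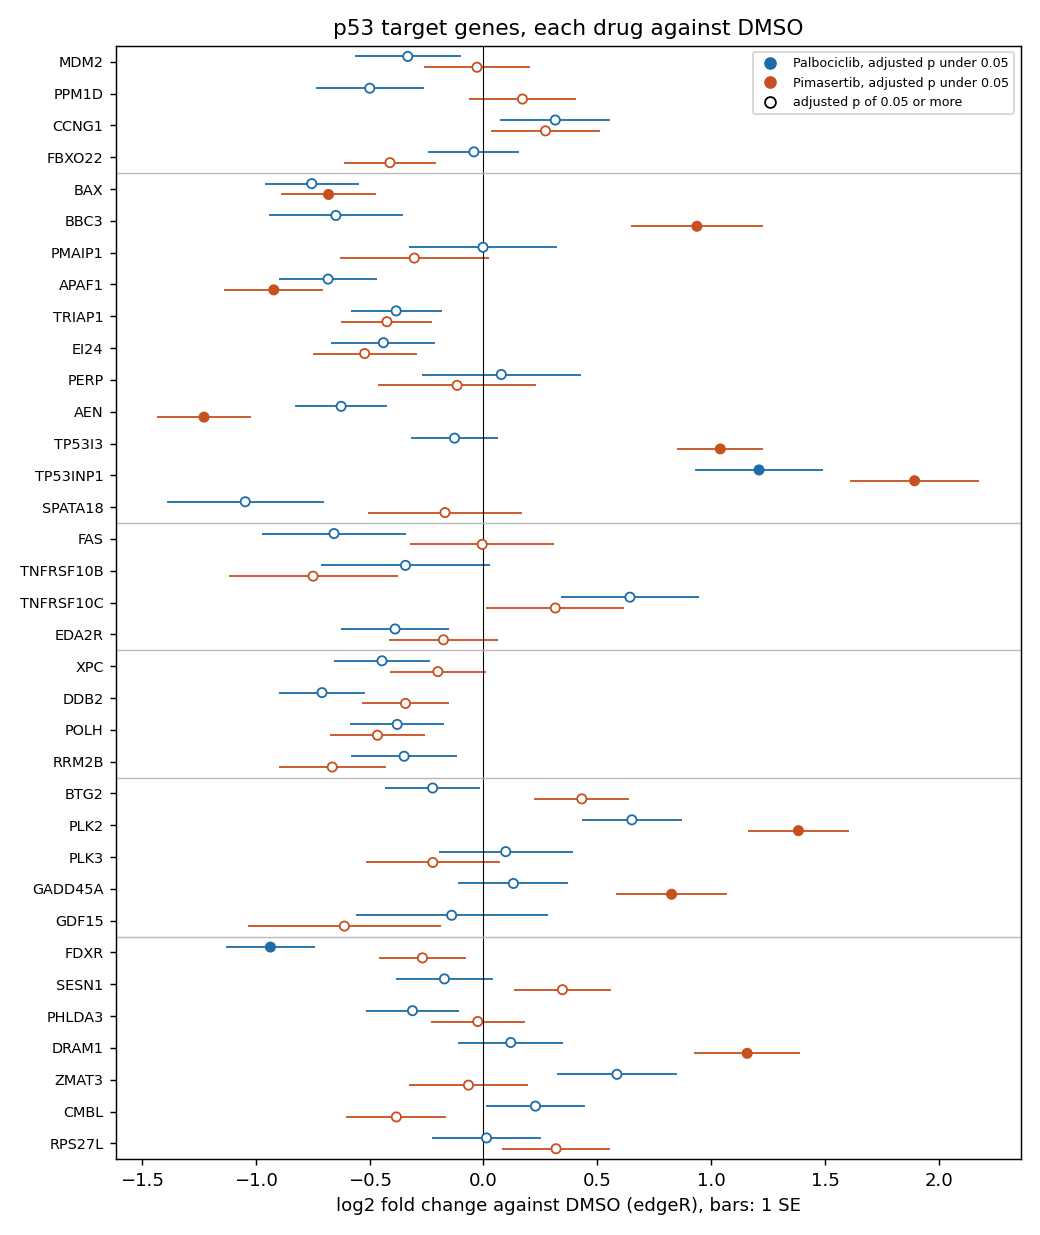
The log2 fold change of the 35 genes against DMSO (horizontal axis) in palbociclib (blue) and pimasertib (orange), with bars of 1 SE, filled points for an adjusted p under 0.05 and open points otherwise. Filled points are TP53INP1 and FDXR in palbociclib and 9 genes in pimasertib, from −1.23 for AEN to 1.89 for TP53INP1.

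The feedback genes, which encode proteins that act back on p53, did not pass in either drug. MDM2 (ENSG00000135679, chromosome 12, 69201956 to 69239214 in GRCh37), the ubiquitin ligase that holds p53 down, was at 319 and 248 CPM in DMSO, 235 and 216 with palbociclib, and 305 and 251 with pimasertib. Pimasertib lay inside the DMSO range, and the log2 fold changes were −0.33 (SE 0.23, adjusted p = 0.504) in palbociclib and −0.03 (SE 0.23, adjusted p = 0.941) in pimasertib. CCNG1, the cyclin G1 gene, stood at 98.7 and 98.9 CPM in DMSO, 129 and 117 with palbociclib, and 145.5 and 93.2 with pimasertib. Its palbociclib libraries were both higher, while its pimasertib libraries straddled DMSO. PPM1D, which encodes the phosphatase WIP1 that switches off p53 signalling, was below DMSO in both palbociclib libraries with a log2 fold change of −0.50 (adjusted p = 0.304). FBXO22, part of another ubiquitin ligase, was below DMSO in both pimasertib libraries at −0.41 (adjusted p = 0.166). In this group of 4, edgeR's test without a replicate term called 0 genes in both drugs, and none had an unadjusted p under 0.05. DESeq2 and limma-voom also called 0. With the replicate number as a block, edgeR called FBXO22 lower in pimasertib (−0.41, adjusted p = 0.0184), where that fit called 23.6% of all tested genes lower.

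The 11 genes of the apoptosis group included 3 that rose and 3 that fell in pimasertib, 27.3% each way, beside 11.1% and 11.7% of all tested genes. BBC3 (ENSG00000105327, chromosome 19, 47724081 to 47736023), which encodes the BH3-only activator PUMA, rose while BAX, the effector that PUMA helps to activate, fell. BBC3 was at 21.6 and 32.5 CPM in DMSO, 12.4 and 22.01 with palbociclib, and 52.0 and 51.6 with pimasertib. Its pimasertib libraries lay above all others, by a log2 fold change of 0.94 over DMSO (SE 0.29, adjusted p = 0.0409). That call was lost without DMSO replicate 1 (adjusted p = 0.207) and without either pimasertib library (0.145 and 0.174). BAX (ENSG00000087088, chromosome 19, 49458072 to 49465055) was at 179 and 199 CPM in DMSO, 106 and 118 with palbociclib, and 112 and 124 with pimasertib. All 4 treated libraries were below both DMSO libraries, with log2 fold changes of −0.75 (SE 0.21, adjusted p = 0.0811) in palbociclib and −0.68 (SE 0.21, adjusted p = 0.0386) in pimasertib. The pimasertib call failed in each of the 6 fits that left out a library, at adjusted p from 0.0522 to 0.184, and DESeq2 also called the palbociclib value (adjusted p = 0.0194).

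APAF1 (ENSG00000120868, chromosome 12, 99038919 to 99129204), the scaffold on which caspase-9 is activated, stood at 35.8 and 32.1 CPM in DMSO, 23.3 and 19.0 with palbociclib, and 19.4 and 16.5 with pimasertib. Both drugs were below DMSO in every library, and the pimasertib value passed at −0.92 (SE 0.22, adjusted p = 0.0137), while palbociclib gave −0.68 (adjusted p = 0.125). Without DMSO replicate 1 the pimasertib call was lost (adjusted p = 0.0658), as it was without pimasertib replicate 1 (0.0506) or replicate 2 (0.122). AEN (ENSG00000181026, chromosome 15, 89164527 to 89175513), an exonuclease that digests DNA in dying cells, had the deepest fall of the set in pimasertib. Its levels were 147 and 123 CPM in DMSO, 91.0 and 84.4 with palbociclib, and 60.6 and 54.9 with pimasertib. The 3 groups did not overlap, and AEN was 2.34-fold lower in pimasertib than in DMSO by group means, a log2 fold change of −1.23 (SE 0.20, adjusted p = 0.00242). In palbociclib it was −0.62 (SE 0.20, adjusted p = 0.132). The pimasertib call passed whichever library was left out, the highest adjusted p being 0.0431.

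TP53I3 (ENSG00000115129, chromosome 2, 24300303 to 24308731), which encodes a quinone oxidoreductase, rose in pimasertib and did not pass in palbociclib. It was at 26.9 and 27.6 CPM in DMSO, 24.7 and 25.1 with palbociclib, and 54.7 and 57.2 with pimasertib. With an SD of 0.521 CPM in DMSO and 1.77 CPM in pimasertib, the pimasertib libraries were 2.06-fold higher than DMSO, a log2 fold change of 1.04 (SE 0.19, adjusted p = 0.00387), a call that passed whichever library was left out (highest adjusted p 0.0373). The palbociclib value was −0.13 (adjusted p = 0.787). TP53INP1 (ENSG00000164938), a nuclear stress protein gene that p53 and FOXO factors can both raise, had the largest rise of the set. It was at 16.3 and 22.3 CPM in DMSO, 32.3 and 56.9 with palbociclib, and 70.0 and 73.5 with pimasertib, so the 3 groups did not overlap. By group means it was 3.71-fold higher in pimasertib (log2 fold change 1.89, SE 0.28, adjusted p = 0.00133) and 2.31-fold higher in palbociclib (1.21, SE 0.28, adjusted p = 0.0434). The pimasertib call passed whichever library was left out. Without palbociclib replicate 2, the library that stood apart, the palbociclib value was 0.77 and did not pass (adjusted p = 0.221), and without DMSO replicate 1 it was 1.003 (adjusted p = 0.13). Leaving out pimasertib replicate 1 or 2 also ended the palbociclib call (0.0963 and 0.102).

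The remaining 5 apoptosis genes passed in neither drug by edgeR's test without a replicate term. With the replicate number as a block, edgeR called EI24 lower in both drugs, TRIAP1 lower in pimasertib and SPATA18 lower in palbociclib. That fit called 11.3% of all tested genes lower in palbociclib and 23.6% in pimasertib. PMAIP1, which encodes the BH3-only protein NOXA, was at 18.2 and 26.3 CPM in DMSO, 17.01 and 27.3 with palbociclib, and 22.9 and 13.1 with pimasertib, with overlapping groups throughout. EI24, an endoplasmic reticulum membrane protein gene, and TRIAP1, an inhibitor of apoptosis, were below DMSO in all 4 treated libraries, with log2 fold changes from −0.38 to −0.52. PERP, a membrane protein of cell junctions, overlapped in both drugs, its DMSO libraries alone spanning 143 to 283 CPM. SPATA18 was at 10.6 and 10.1 CPM in DMSO, 3.30 and 6.61 with palbociclib, and 10.1 and 8.21 with pimasertib. Its palbociclib value of −1.05 did not pass (SE 0.35, adjusted p = 0.141), and without palbociclib replicate 2 it was −1.61 and passed (adjusted p = 0.0454).

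**Figure D3:**
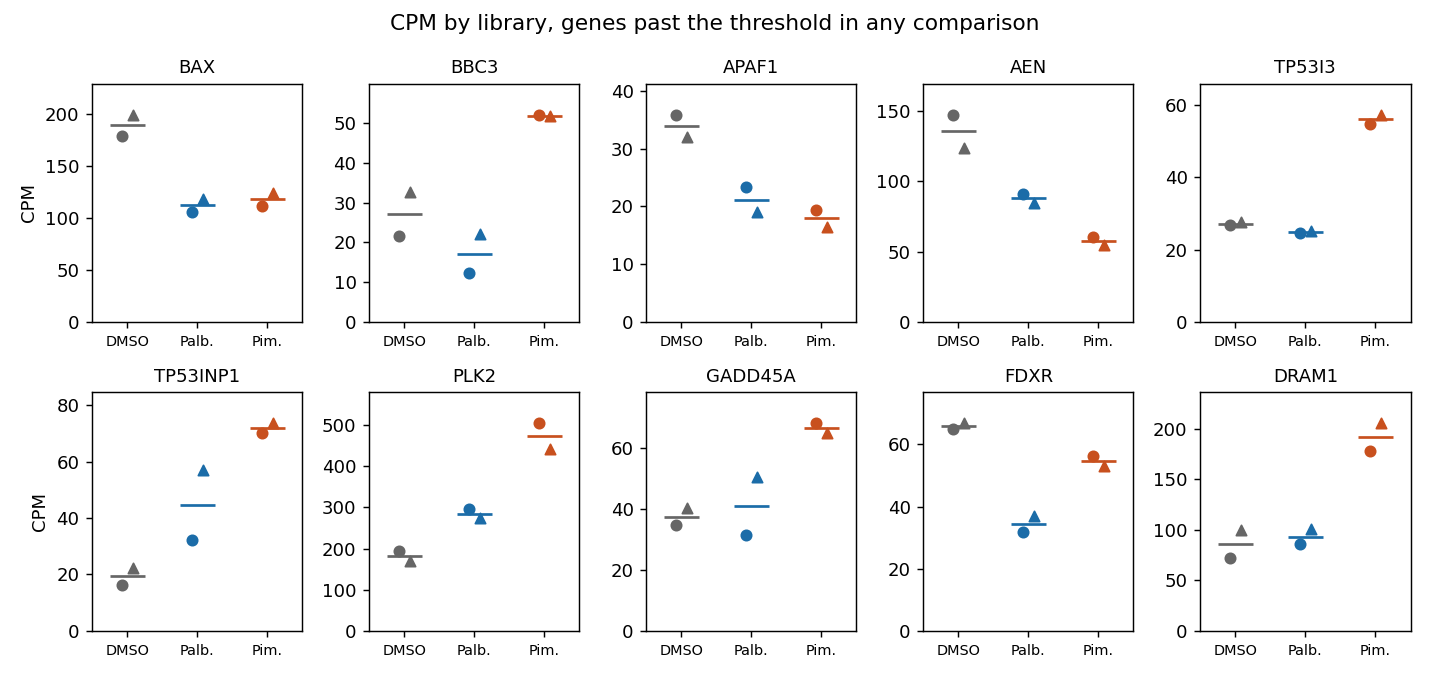
CPM in each library (vertical axis, from 0) of the 10 genes past the threshold in any of the 3 comparisons, with circles for replicate 1, triangles for replicate 2 and a line at the group mean. AEN, TP53INP1, PLK2 and FDXR show 3 groups in separate steps, while TP53I3 lies at 24.7 to 27.6 CPM in DMSO and palbociclib and at 54.7 and 57.2 CPM in pimasertib.

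Death and decoy receptor genes did not pass in either drug, and the libraries of single groups differed widely in them. FAS, the receptor for the FAS ligand, was at 24.5 and 49.2 CPM in DMSO, 18.7 and 27.9 with palbociclib, and 35.2 and 38.1 with pimasertib. The DMSO libraries enclosed both pimasertib libraries, and the log2 fold change there was −0.01 (adjusted p = 0.992). In palbociclib it was −0.66 (SE 0.32, adjusted p = 0.315), which passed without DMSO replicate 1 (−1.07, adjusted p = 0.0389). TNFRSF10B, the TRAIL receptor DR5, was at 467 and 864 CPM in DMSO, 365.5 and 684 with palbociclib, and 323 and 469 with pimasertib. The pimasertib value was −0.75 (SE 0.37, adjusted p = 0.173), and it too passed without DMSO replicate 1 (−1.13, adjusted p = 0.0427). TNFRSF10C, a decoy receptor that binds TRAIL without signalling, was above DMSO in both palbociclib libraries at 0.64 (adjusted p = 0.297). EDA2R, the receptor for an ectodysplasin form, was below DMSO in both palbociclib libraries at −0.39 (adjusted p = 0.437). In the group of 4, edgeR's test without a replicate term called 0 genes in each drug, and 0 had an unadjusted p under 0.05. DESeq2 and limma-voom also called 0. With the replicate number as a block, edgeR called FAS lower in palbociclib (−0.62, adjusted p = 0.0334) and TNFRSF10B lower in pimasertib (−0.70, adjusted p = 5.11e-04). That fit called 11.3% and 23.6% of all tested genes lower in these drugs.

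The 4 genes of DNA repair and nucleotide supply lay below both DMSO libraries in every treated library, and none of them passed edgeR's test without a replicate term. Taking each drug alone, 23.3% of all tested genes lay below in palbociclib and 32.6% in pimasertib. The share below in both drugs was not counted. DDB2, a sensor of ultraviolet damage, was at 86.5 and 86.8 CPM in DMSO, 50.5 and 55.5 with palbociclib, and 67.4 and 69.2 with pimasertib. The 3 groups did not overlap, with log2 fold changes of −0.71 in palbociclib (SE 0.19, adjusted p = 0.0744) and −0.34 in pimasertib (adjusted p = 0.218), and DESeq2 called the palbociclib value (adjusted p = 0.0425). RRM2B, a ribonucleotide reductase subunit that serves repair outside S phase, had its lowest value in pimasertib at −0.66 (SE 0.23, adjusted p = 0.0663), which DESeq2 also called (adjusted p = 0.0485). XPC, which recognises damage for nucleotide excision repair, and POLH, a polymerase that copies past lesions, ranged from −0.20 to −0.47. The group's medians were −0.41 in palbociclib and −0.40 in pimasertib. By edgeR's test without a replicate term 0 of the 4 passed. An unadjusted p was under 0.05 for 1 gene in palbociclib and 2 in pimasertib, all negative in sign. Limma-voom called 0 and DESeq2 called 1 lower in each drug. With the replicate number as a block, edgeR called XPC and DDB2 lower in palbociclib and DDB2, POLH and RRM2B lower in pimasertib. That fit called 11.3% and 23.6% of all tested genes lower in these drugs.

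Of the 5 growth arrest and early response genes, PLK2 and GADD45A rose in pimasertib, 40.0% beside 11.1% of all tested genes. By edgeR's test without a replicate term none passed in palbociclib, where 1.11% of all tested genes rose. PLK2 (ENSG00000145632, chromosome 5, 57749809 to 57756087), a polo-like kinase gene induced early after growth stimulation or stress, was at 194 and 169 CPM in DMSO, 296 and 274 with palbociclib, and 504 and 443 with pimasertib. The 3 groups formed separate steps. PLK2 was 2.61-fold higher in pimasertib (log2 fold change 1.38, SE 0.22, adjusted p = 0.00202), a call that passed whichever library was left out. In palbociclib it was 0.65 (SE 0.22, adjusted p = 0.149), which DESeq2 called (adjusted p = 0.0354). GADD45A (ENSG00000116717, chromosome 1, 68150744 to 68154021), whose protein links stress to growth arrest and demethylation, was at 34.8 and 40.2 CPM in DMSO, 31.6 and 50.4 with palbociclib, and 68.1 and 64.9 with pimasertib. The palbociclib libraries straddled DMSO, and pimasertib was above both other groups by 0.83 over DMSO (SE 0.24, adjusted p = 0.0336). Without DMSO replicate 1, or either pimasertib library, the call was lost (adjusted p = 0.143, 0.137 and 0.132).

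BTG2, an antiproliferative gene that also responds early to growth factors, was at 24.7 and 30.2 CPM in DMSO, 21.5 and 25.5 with palbociclib, and 37.2 and 36.8 with pimasertib. Its pimasertib libraries were both above DMSO, but the value of 0.43 did not pass (SE 0.21, adjusted p = 0.161). PLK3, another polo-like kinase gene, was at 19.9 and 27.1 CPM in DMSO, 21.4 and 28.8 with palbociclib, and 14.9 and 25.5 with pimasertib, with overlap in both comparisons. GDF15 was at 165 and 373 CPM in DMSO, 158 and 329.7 with palbociclib, and 139.9 and 212 with pimasertib. In each group the library numbered 2 was the higher one, and the pimasertib value of −0.61 had an SE of 0.42 (adjusted p = 0.325). With the replicate number as a block, edgeR called BTG2 higher and GDF15 lower in pimasertib, and PLK2 higher in palbociclib. That fit called 20.6% of all tested genes higher and 23.6% lower in pimasertib, and 8.65% higher in palbociclib.

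Among the 7 genes of metabolism, signalling and other roles, FDXR fell in palbociclib (14.3%, beside 2.44% of all tested genes) and DRAM1 rose in pimasertib (14.3%, beside 11.1%). FDXR (ENSG00000161513, chromosome 17, 72858619 to 72869156), ferredoxin reductase of the mitochondrial electron relay, was at 64.9 and 66.8 CPM in DMSO, 31.8 and 37.0 with palbociclib, and 56.4 and 52.9 with pimasertib. The 3 groups did not overlap, and palbociclib was 1.91-fold lower than DMSO (log2 fold change −0.94, SE 0.19, adjusted p = 0.0264), while pimasertib gave −0.27 (adjusted p = 0.341). The palbociclib value was −1.02 without palbociclib replicate 2 and no longer passed (adjusted p = 0.0847). It was also lost without palbociclib replicate 1 (0.129), DMSO replicate 1 (0.061) or either pimasertib library (0.0585 and 0.0608). DRAM1 (ENSG00000136048, chromosome 12, 102271129 to 102405908), a lysosomal membrane protein gene that takes part in autophagy, was at 72.0 and 99.9 CPM in DMSO, 85.7 and 101 with palbociclib, and 178 and 205 with pimasertib. Pimasertib was 2.23-fold higher than DMSO (log2 fold change 1.16, SE 0.23, adjusted p = 0.00652), and the call was lost only without pimasertib replicate 2 (adjusted p = 0.0653).

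The other 5 genes of that group did not pass in either drug by edgeR's test without a replicate term. With the replicate number as a block, edgeR called ZMAT3 higher in palbociclib, RPS27L higher in pimasertib and CMBL lower in pimasertib. That fit called 8.65% of all tested genes higher in palbociclib. In pimasertib it called 20.6% higher and 23.6% lower. ZMAT3, an RNA-binding zinc finger gene, had both palbociclib libraries above DMSO, at 556 and 407 CPM against 356 and 285 (log2 fold change 0.59, adjusted p = 0.275). CMBL, a hydrolase gene, was above DMSO in palbociclib at 0.23 and below it in pimasertib at −0.38, with neither past the threshold. SESN1, a sestrin that restrains mTORC1, was below DMSO in palbociclib at −0.17 and above it in pimasertib at 0.35. PHLDA3, which blocks AKT at the membrane, and RPS27L, a ribosomal protein gene related to RPS27, stayed between −0.31 and 0.32.

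Compared directly, edgeR's test called BBC3, TP53I3 and DRAM1 higher in pimasertib than in palbociclib and no gene of the set lower. These 3 are 8.57% of the 35, beside 5.07% of all tested genes higher and 4.31% lower. The median log2 difference was 0.21, beside 0.0164 over all tested genes, and 19 of the 35 values were positive, as were 51.1% of all tested values. Without overlap, 16 genes (45.7%) were above and 4 (11.4%) below, beside 28.8% and 27.7% of all tested genes. BBC3 gave the largest difference at 1.58 (SE 0.30, adjusted p = 0.00755), lost without pimasertib replicate 1 (0.0592) or 2 (0.0732). TP53I3 was higher by 1.17 (SE 0.19, adjusted p = 0.00353) and passed whichever library was left out. DRAM1 was higher by 1.04 (SE 0.23, adjusted p = 0.0193), lost without palbociclib replicate 1 (0.111) or either pimasertib library (0.076 and 0.166). Without palbociclib replicate 2 these 3 differences were 2.08, 1.19 and 1.17 and all passed. TP53INP1 (1.16, adjusted p = 0.0194), GADD45A (1.09, adjusted p = 0.0233) and SPATA18 (1.49, adjusted p = 0.0236) then passed as well, so that 6 genes were higher. For the lower direction edgeR's test without a replicate term called 0 genes, with 3 at an unadjusted p under 0.05. DESeq2 and limma-voom also called 0. With the replicate number as a block, edgeR called AEN, CMBL, FBXO22, GDF15, TNFRSF10B and ZMAT3 lower and 13 genes of the set higher. That fit called 15.6% of all tested genes lower and 16.0% higher. Each drug was given at 1 dose, so the comparison is between these doses.

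In some of the 35 genes the libraries of a group differed in the same direction in all 3 groups. GDF15 was 2.26-fold higher in replicate 2 than in replicate 1 of DMSO, 2.08-fold in palbociclib and 1.52-fold in pimasertib. TNFRSF10B showed ratios of 1.85, 1.87 and 1.45 in the same order, and PERP 1.98, 1.78 and 1.09. FAS showed 2.01, 1.49 and 1.08, and ZMAT3 went the other way with 0.799, 0.733 and 0.738. Other genes changed direction between groups, for example PMAIP1 with 1.44, 1.61 and 0.574 and SPATA18 with 0.953, 2.00 and 0.81. For GDF15 and TNFRSF10B the ratio between the DMSO libraries was larger than the fold between DMSO and either drug by group means. Over all 35 genes the median log2 ratio of replicate 2 to replicate 1 was 0.0391, 0.151 and −0.0401, near the values of −0.0398, 0.00945 and −0.0139 over all tested genes. Mitochondrially encoded genes held a larger share of counts in replicate 2 of each group too, with 5.67% against 3.21% in DMSO, 6.31% against 4.57% in palbociclib and 8.76% against 4.25% in pimasertib, and its part in these differences was not tested.

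**Figure D4:**
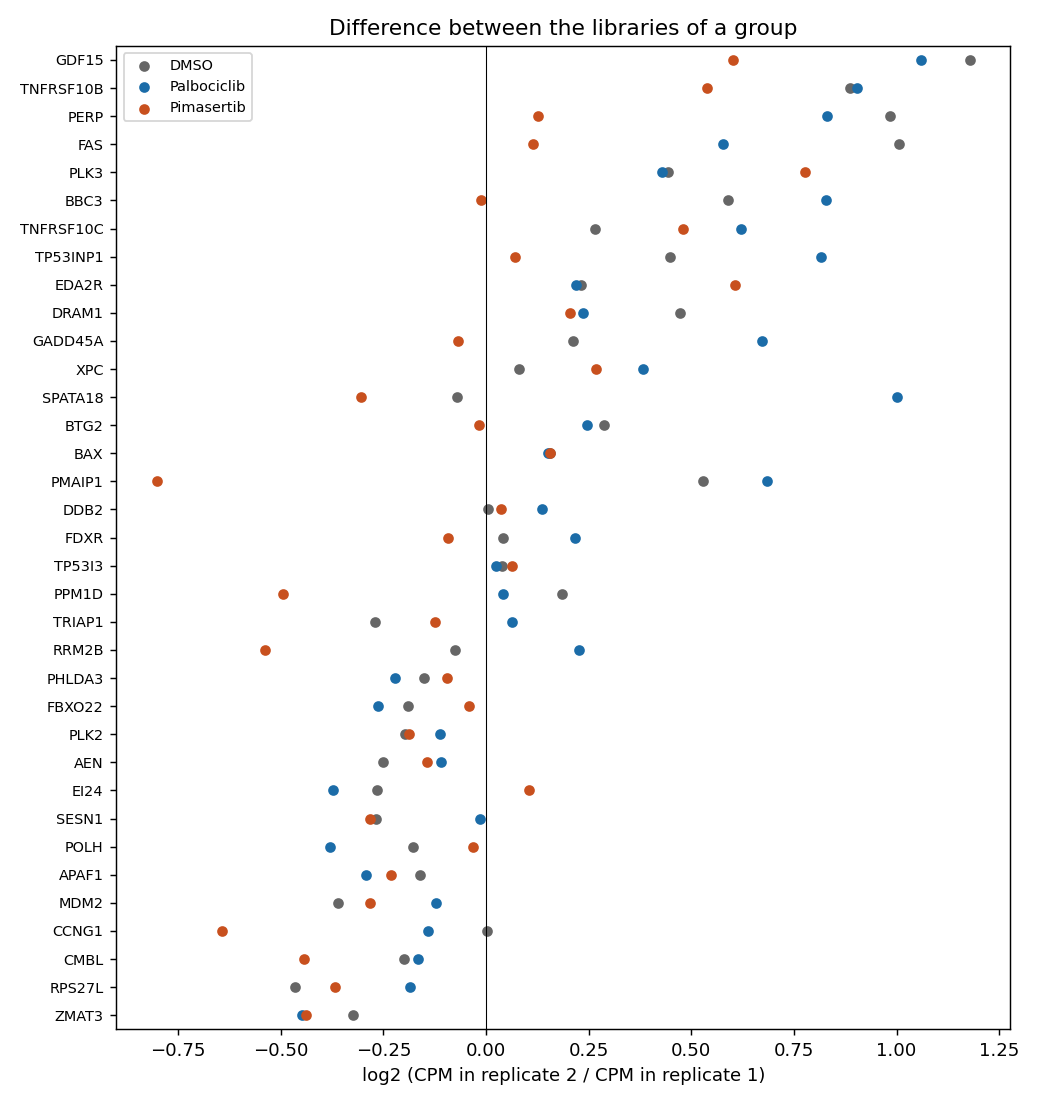
The log2 ratio of CPM in replicate 2 over replicate 1 (horizontal axis) for each of the 35 genes, in DMSO (grey), palbociclib (blue) and pimasertib (orange), ordered by its mean over the groups. GDF15 and TNFRSF10B lie to the right in all 3 groups and ZMAT3 to the left in all 3.

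Regulators of p53 were read beside its targets. Among 22 tested regulators, 3 (13.6%, beside 11.7% of all tested genes) fell in pimasertib, namely the kinase genes CHEK1 (−0.99, adjusted p = 0.0148) and HIPK2 (−1.08, adjusted p = 0.0194) and the deubiquitinase gene USP7 (−0.89, adjusted p = 0.0333). Each of these 3 calls was lost in 3 of the 6 fits that left out a library. The lost fits were those without DMSO replicate 1 or either pimasertib library, with adjusted p up to 0.138 for CHEK1, 0.152 for HIPK2 and 0.236 for USP7. MDM4, the partner of MDM2, passed in neither drug, and the p53 relatives TP63 and TP73 were at most 0.135 CPM in any library, under the level of 3 counts. In palbociclib edgeR called 0 of the 22, with 3 at an unadjusted p under 0.05, and DESeq2 and limma-voom called 0.

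A further 29 reported p53 targets outside the 35 genes, of which 26 were tested, gave 5 that rose and 2 that fell in pimasertib, 19.2% and 7.69% beside 11.1% and 11.7% of all tested genes. The largest rise was that of ABHD4, a lipid hydrolase gene, from 13.2 and 13.8 CPM in DMSO to 70.0 and 66.4 in pimasertib (log2 fold change 2.34, SE 0.24, adjusted p = 1.73e-04), with 13.4 and 20.3 in palbociclib. DDIT4 (1.62), which restrains mTORC1, STEAP3 (1.24), a ferrireductase gene, TRIM22 (1.20), an interferon-responsive gene, and KIAA0247 (0.94) also rose, while IER5 (−0.92), an early response gene, and CYFIP2 (−0.75) fell. Of these 7, ABHD4 passed whichever library was left out. The other 6 were lost in 1 to 4 of the 6 such fits, each of them without pimasertib replicate 2. CDKN1A, the p21 gene and the best known p53 target in cell cycle arrest, was at 316 and 311 CPM in DMSO, 231 and 268 with palbociclib, and 479 and 426 with pimasertib. The 3 groups did not overlap, but neither drug passed against DMSO (−0.33, adjusted p = 0.475, and 0.53, adjusted p = 0.109), while pimasertib was higher than palbociclib by 0.86 (adjusted p = 0.0362). That last call was lost when any library of the 2 drugs was left out (0.295 and 0.0685 for palbociclib replicates 1 and 2, 0.19 and 0.142 for those of pimasertib). In palbociclib edgeR called 0 of the 26, with 3 at an unadjusted p under 0.05, and DESeq2 and limma-voom called 0.

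PLK2 and BTG2 also respond early to growth signals, and the protein of GADD45A links stress to growth arrest. A list of immediate-early and dissociation-stress genes, heat-shock genes such as HSPA1A among them, was therefore read too. Of 14 tested, 3 rose (21.4%, beside 11.1% of all tested genes) and 2 fell (14.3%, beside 11.7%) in pimasertib. JUNB (1.84, adjusted p = 4.63e-04), JUND (1.39, adjusted p = 0.00116) and ATF3 (1.98, adjusted p = 0.00499) rose, and FOSL1 (−2.65, adjusted p = 1.24e-04) and JUN (−0.76, adjusted p = 0.0294) fell. JUNB, JUND and FOSL1 passed whichever library was left out, ATF3 was lost without pimasertib replicate 2 (0.0504), and JUN without DMSO replicate 1 (0.131) or either pimasertib library (0.107 and 0.194). FOSL1, a target of ERK signalling, fell in palbociclib as well (−1.29, adjusted p = 0.0174), although that call was lost without palbociclib replicate 2 (0.0932) and 3 other libraries. Close relatives of the set could differ from it. SESN3, a sestrin relative of SESN1, rose in both drugs (2.02, adjusted p = 0.00319, and 2.09, adjusted p = 6.84e-04), and CCNG2, the relative of CCNG1, rose in pimasertib (1.56, adjusted p = 0.00287). GADD45B rose in pimasertib by 1.18 (adjusted p = 0.0126), a call lost without pimasertib replicate 1 (0.072) or 2 (0.0833). PLK1, the mitotic relative of PLK2, fell in both drugs (−1.75 in palbociclib and −1.70 in pimasertib), as did RRM2, the S-phase relative of RRM2B (−2.16 and −2.38). PLK4, another relative of PLK2, fell in both too (−2.12 and −1.41). So did both proliferation markers, MKI67 (−2.565 and −2.15) and TOP2A (−1.69 and −0.94), beside 2.44% and 11.7% of all tested genes. In pimasertib the PLK4 and TOP2A calls were lost without pimasertib replicate 2, and that of TOP2A also without DMSO replicate 1. Without palbociclib replicate 2 the palbociclib values were 1.84 for SESN3, −1.66 for PLK1 and −1.89 for RRM2, and all passed.

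Reads were counted per gene, and the use of strand in counting is not stated. If strand was not used, reads in the bases that a gene shares with a partner on the opposite strand cannot be told apart. Of the 35 genes 14 overlap another listed gene, and in 5 of them the partner's counts exceeded 10% of their own. These are counts of the whole partner gene, and those in the shared bases alone are not known. For TP53INP1 the partner NDUFAF6 held 27.8% as many counts and did not pass in either drug. FAS shares 734 bases with ACTA2, at 32.2%, which rose in pimasertib by 2.24 (adjusted p = 0.0013). The partner of RPS27L, LACTB, held 73.3% as many counts and rose in both drugs (0.99, adjusted p = 0.0398, and 2.44, adjusted p = 1.05e-04). By the same test, without a replicate term, RPS27L passed in neither. XPC with LSM3 and POLH with GTPBP2 had partners at 65.6% and 74.2%, with 426 and 13649 shared bases. Reads of RPS27L and of its close relative RPS27 may also have been split between them, so the values of RPS27L are uncertain.

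The authors' deposited tables gave an adjusted p under 0.05 to the same 9 genes of the 35 in pimasertib. In palbociclib the authors' deposited table gave one to TP53INP1 (0.0153), FDXR (0.0150) and BAX (0.0404), whereas the test used here called the first 2.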

How the data were processed

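RNA sequencing was read from 6 libraries of HT-1080 cells, 2 per group. Tools named in the submitters' processing notes are STAR 2.5, HTSeq 0.6.1, CASAVA and DESeq2, and the builds are GRCh37 and hg19, with neither order nor settings. The authors deposited 1 table per drug with raw read counts, FPKM and, per the file headers, adjusted p-values of their comparison with DMSO. The deposited FPKM values were used only to compare levels between genes, and the authors' p-values only to set calls side by side.

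The tables held 23914 and 24931 genes, 26286 in either. DMSO counts were identical in both for all 22559 shared genes, and genes listed in 1 table only had 0 DMSO reads and were set to 0 in the other. The main test was edgeR 4.0.16 (R 4.3.3) with filterByExpr by group (minimum count 10, minimum total 15), TMM scaling, and 1 robust glmQLFit model of 3 groups over all 6 libraries. Each pair of groups was tested two-sided by glmQLFTest at a threshold of 0.05 after Benjamini-Hochberg adjustment across 14839 genes. The SE is the absolute log2 fold change divided by the square root of F. Counts of 14088 genes were simulated for pimasertib against DMSO. Of these, 85 of 100 genes changed 2-fold and 100 of 100 changed 4-fold were recovered, with 9 false calls. The simulation gave every gene the same relative spread beyond counting noise, and no deviation shared by same-numbered libraries. The changed genes were drawn from those above a cut on total counts. These shares hold for the simulated counts, whose spread in these ways differs from that of the libraries. In pimasertib against DMSO the SE was 0.19 for DDB2 and 0.42 for GDF15, so a single share cannot hold for every gene. The shares are therefore not the power for genes that did not pass. Alternatives were RLE scaling, no filter, a minimum count of 50, DESeq2 1.42.0, limma-voom (limma 3.58.1), the 4 libraries of a comparison, the replicate number as a block, and leaving out each library.

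The 35 genes, the other gene lists and the naming rule were chosen with earlier results of these data known. All 35 may be named, with library values for those past the threshold and for MDM2, BAX, BBC3, PMAIP1, FAS, CCNG1, GDF15, BTG2, PLK2, PLK3 and GADD45A, and of other lists the genes past the threshold. MDM4, TP63, TP73, HSPA1A, VIM, THY1, NT5E, COL1A2, KRT14, KRT19, CDH1, PTPRC and the overlapping partners lie outside that rule. 1 result among the regulators is not reported here. DDB2, SPATA18, TNFRSF10B and ZMAT3 were given library values after these were seen. Gene coordinates come from the deposited tables (GRCh37) and sequences from RefSeq (GRCh38.p14).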

Additional observations from a re-analysis of the deposited data

How the results depend on the processing

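Of 105 log2 fold changes (35 genes in 3 comparisons), each under 13 alternatives, no called value reversed sign. Against the test of all 6 libraries, 1275 of 1365 values stayed on their side of the threshold, 35 lost it and 55 gained it, 38 of the latter with the replicate block. Signs changed in 71 cases, all among values not past the threshold, the largest of them 0.61 in size.

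Counts of genes called moved more, and where they did the cause was not tested. In palbociclib the 1 gene called higher became 0 with a minimum count of 50 or the 4 libraries of the comparison, 2 with DESeq2, 3 with the block, and 0 to 1 when a library was left out. The 1 called lower, FDXR, became 0 with 4 libraries, 3 with DESeq2 and 10 with the block. When a library was left out, FDXR was lost in most fits. The gene called lower was then FAS without DMSO replicate 1 and SPATA18 without palbociclib replicate 2. In pimasertib the 6 called higher were 3 to 6 and the 3 called lower 1 to 2 when a library was left out, and the block gave 8 and 12. For pimasertib against palbociclib the 3 called higher became 6 with no filter, 5 with a minimum count of 50, 5 with DESeq2, 13 with the block, and 1 to 6 when a library was left out, and the 0 called lower became 6 with the block. Apart from left-out libraries, the fall of BAX in pimasertib was lost with no filter (adjusted p = 0.062) and with 4 libraries (0.0689), and in palbociclib the rise of TP53INP1 with a minimum count of 50 (0.0561) and with 4 libraries (0.105) and the fall of FDXR with 4 libraries (0.0588). A fit that leaves 1 library in an arm assumes that it varies like the other groups.

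Same-numbered libraries deviated from their group means together (r = 0.397, 0.351 and 0.345 across 14839 genes, which are not independent replicates). With 2 numbers per group and no label saying what a number marks, pairing was not taken from it. The replicate block raised calls over all genes as well, to 8.65% higher and 11.3% lower in palbociclib, 20.6% and 23.6% in pimasertib, and 16.0% and 15.6% between the drugs. With the block, PLK2, TP53INP1 and ZMAT3 were higher in palbociclib, and AEN, APAF1, BAX, BBC3, DDB2, EI24, FAS, FDXR, SPATA18 and XPC were lower. In pimasertib BBC3, BTG2, DRAM1, GADD45A, PLK2, RPS27L, TP53I3 and TP53INP1 were higher. Lower there were AEN, APAF1, BAX, CMBL, DDB2, EI24, FBXO22, GDF15, POLH, RRM2B, TNFRSF10B and TRIAP1.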
